A study of Homo sapiens with 6 samples.

Results

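The G1/S and DNA replication genes are 51 genes whose products carry a cell past the G1/S boundary and copy its DNA. They were chosen by name from the 60461 genes of the deposited count table. All 51 were found there, and all 51 had enough counts to be tested. They were followed in MDA-MB-231 cells, a human line established from triple-negative breast cancer, after transduction with an adenovirus coding for ADAR1 p110, the mainly nuclear form of an enzyme that edits RNA, or with a control adenovirus coding for enhanced green fluorescent protein (GFP). Each group held 3 libraries of total RNA, both viruses were given at a multiplicity of infection of 200. The medium was renewed at 16 h and RNA was taken at 48 h. The sample titles call the libraries of each group biological replicates. The sources used here give neither the promoters in the vectors nor how replicate cultures were kept apart. The spread behind each p-value is thus that among these libraries, and may not be that of independent experiments. Cells without virus were not analysed here.

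Before S phase, the origin recognition complex (ORC) with CDC6 and CDT1 loads the ring of MCM2 to MCM7 onto DNA, and geminin (GMNN) blocks a further round of loading. Cyclin E with its kinase partner, the phosphatase CDC25A and the CDC7 kinase with its activator DBF4 then drive firing, in which CDC45 and the GINS complex join the ring to form the active helicase. DNA polymerases alpha, delta and epsilon synthesise the strands, with the sliding clamp PCNA loaded by replication factor C (RFC). Most of these genes are transcribed under E2F factors, which the retinoblastoma protein holds back in G1, and their activity is a common mark of proliferating tumour cells.

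Library totals lay between 72741235 and 99589278 counts, and the least abundant measurement of any of the 51 genes was 437 counts in 1 library. ADAR itself stood at 1011, 1015 and 990.2 CPM with ADAR1 p110, against 257, 272 and 272 CPM with GFP, where CPM is the count scaled to a common library total after TMM normalization (log2 fold change 1.91 with SE 0.049, edgeR adjusted p = 2.67e-09). The overexpressed gene thus matched the labels in all 6 libraries. As the cell line's markers go, the mesenchymal gene VIM averaged 2178 CPM with ADAR1 p110 and 1951 CPM with GFP. The oestrogen receptor gene ESR1 averaged 0.00431 CPM with ADAR1 p110 and 0.0391 CPM with GFP. Both come from a longer list of markers. Of the others listed as low, PGR averaged 0.00877 CPM with ADAR1 p110 and 0.00339 CPM with GFP. However, ERBB2 averaged 90.04 and 85.8 CPM in the same order, EPCAM 10.6 and 10.2, GATA3 3.61 and 3.54, and CDH1 4.15 and 2.8. CDH1 was higher with ADAR1 p110 (log2 fold change 0.57 with SE 0.103, edgeR adjusted p = 0.00966). On the second principal component, with 21.8% of the variance, ADAR1 p110 replicate 1 and GFP replicate 2 stood apart from the other 4 libraries. The share of ribosomal protein genes was 4.14% in that ADAR1 p110 library and 4.20% in that GFP library, where the other 4 ran from 4.58% to 4.70%. Counts of calls are also given without both.

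Most of the replication genes had estimates slightly above 0 with ADAR1 p110, and a small number passed the test. GINS1, E2F1, E2F2, MCM6 and GINS2 rose, and CDC25A fell (quasi-likelihood test of edgeR, with p adjusted by Benjamini-Hochberg over all 18899 tested genes and a threshold of 0.05). The 5 that rose are 9.80% of the 51 genes, where 1.95% of all tested genes rose, and the 1 that fell is 1.96%, where 2.96% of all tested genes fell (4.91% in either direction). With scaling by library size alone, 510 of all genes rose and 479 fell, against 368 and 559 with TMM, and 7 of the 51 rose and 1 fell. In 41 of the 51 genes the estimate lay above 0, or 80.4%, against 51.2% of all tested genes, with a median log2 fold change of 0.08 against 0.00. The middle part of the 51 genes, between the lower and upper quartile, lay at 0.03 to 0.16, against -0.11 to 0.14 over all tested genes.

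Libraries of the groups did not overlap for 15 genes that were higher with ADAR1 p110 and for 2 that were lower, which is 29.4% and 3.92% of the 51, against 11.8% and 12.2% of all tested genes. At an unadjusted p under 0.05, 15 of the 51 were higher and 2 were lower, where 9.21% of all tested genes were higher and 9.43% lower. The changes were small in every case. The 95% interval of the fold change lay within 1.5-fold in both directions for 51 of 51 genes, as it did for 12252 of the 18899 tested genes. The 51 genes were more abundant, with a median of 66.6 CPM against 10.2 CPM over all tested genes. Their intervals were narrower, with a median of 0.14 against 0.21 to either side on the log2 scale. The part of abundance in the shares compared here was not tested. Among the 45 genes that did not pass, the intervals reached down to 0.792-fold and up to 1.31-fold, and 11 of the 45 excluded equality. Together the 51 genes took 0.404%, 0.422% and 0.429% of all counts with ADAR1 p110, against 0.391%, 0.382% and 0.398% with GFP. Triplets of values are in the order of replicates 1, 2 and 3. In bulk RNA, a change in the share of cells in S phase and a change in RNA per cell cannot be told apart.

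**Figure D1:**
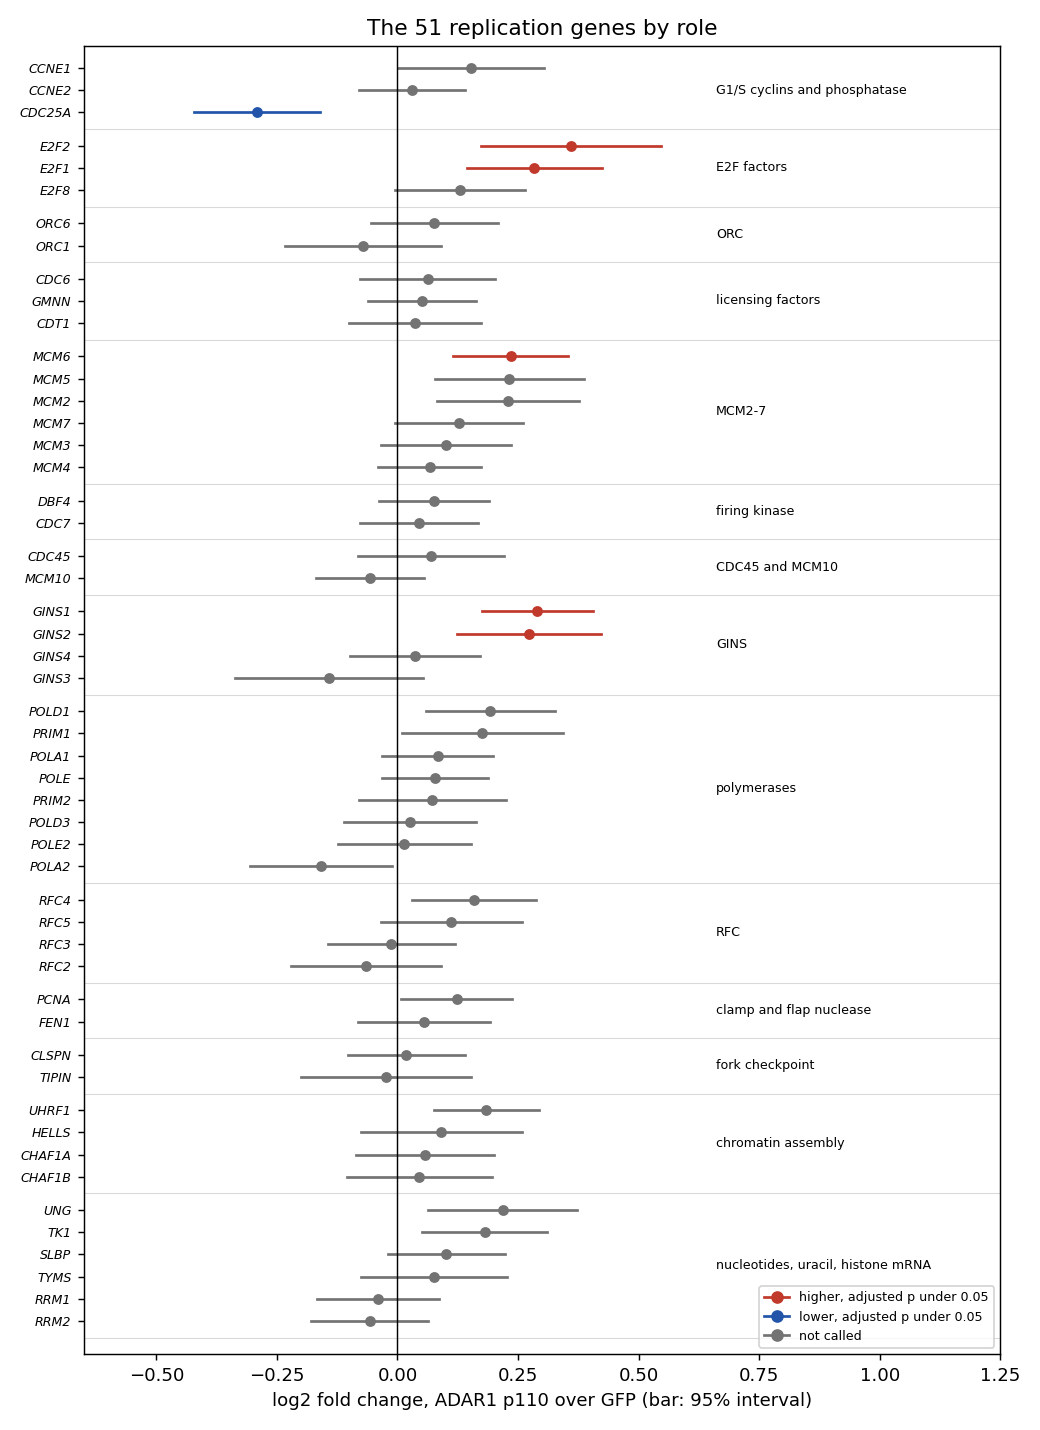
Estimated log2 ratios, ADAR1 p110 over GFP, on the horizontal axis for the 51 genes (rows, grouped by role), with points for edgeR estimates and bars for 95% intervals. The 5 genes that rose are red, the 1 that fell is blue, and the 45 others are grey, with estimates above 0 in 41 of the 51 rows.

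How many genes passed depended on single libraries. Without ADAR1 p110 replicate 1, 11 rose and 1 fell, the added genes being MCM2, MCM5, POLD1, RFC4, UHRF1 and UNG. Without ADAR1 p110 replicate 2, 1 rose and 1 fell, and without ADAR1 p110 replicate 3, 1 rose and 0 fell, GINS1 being the one that rose in both fits. With GFP replicate 1 or GFP replicate 3 left out, 0 of the 51 passed, and with GFP replicate 2 left out 2 rose and 1 fell. Leaving out the 2 libraries that stood apart gave 16 higher and 1 lower, with MCM3, MCM7, PCNA, SLBP and TK1 added to the genes named so far. Over all genes the number of calls moved in the same fits between 396 and 2605. Of all genes, 795 rose and 1017 fell without ADAR1 p110 replicate 1. Without its replicates 2 and 3 in turn, 140 and 112 rose and 336 and 334 fell. Without GFP replicates 1, 2 and 3 in turn, 100, 247 and 147 rose and 296, 425 and 317 fell. Without both libraries that stood apart 1181 rose and 1424 fell, against 368 and 559 with all libraries. The median of the 51 genes was 0.06 to 0.11 in every one of these fits.

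The promoters of the called genes are shown because they share a motif of E2F factors. Most replication genes are transcribed under these factors, so the choice of genes was not independent of the motif. RefSeq windows of 300 bases, with 250 before the start site and 50 after it (build GRCh38.p14), were found for 45 of the 51 genes, and CCNE2, E2F8, MCM4, MCM5, GINS4 and POLD3 had none in the table used. Each window was searched on both strands for the E2F motif in its spellings TTTCCCGC and TTTCGCGC and also TTTGCCGC and TTTGGCGC. Below are the 4 windows of called genes with the smallest p that held a match, written 5′ to 3′ on the gene's strand, with matches to the motif in capitals.
GINS1 promoter (chr20:25407423-25407722, plus strand): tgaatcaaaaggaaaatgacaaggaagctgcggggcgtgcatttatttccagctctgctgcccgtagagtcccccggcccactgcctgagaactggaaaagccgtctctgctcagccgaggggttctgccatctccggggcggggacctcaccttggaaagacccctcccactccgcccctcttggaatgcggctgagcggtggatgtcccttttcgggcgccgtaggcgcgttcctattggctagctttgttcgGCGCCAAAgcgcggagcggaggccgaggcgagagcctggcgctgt
CDC25A promoter (chr3:48188368-48188667, minus strand): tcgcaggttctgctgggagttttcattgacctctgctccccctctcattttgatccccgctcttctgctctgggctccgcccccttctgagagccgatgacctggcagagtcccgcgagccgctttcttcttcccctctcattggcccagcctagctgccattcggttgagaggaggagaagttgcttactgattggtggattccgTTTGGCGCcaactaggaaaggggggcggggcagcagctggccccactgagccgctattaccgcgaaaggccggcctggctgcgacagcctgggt
E2F1 promoter (chr20:33686336-33686635, minus strand): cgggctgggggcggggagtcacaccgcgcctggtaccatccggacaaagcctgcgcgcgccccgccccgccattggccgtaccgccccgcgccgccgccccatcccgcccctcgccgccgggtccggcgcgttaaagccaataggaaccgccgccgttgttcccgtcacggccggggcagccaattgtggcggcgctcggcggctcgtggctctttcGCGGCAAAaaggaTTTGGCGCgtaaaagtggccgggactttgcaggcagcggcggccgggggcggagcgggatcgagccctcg
MCM6 promoter (chr2:135876394-135876693, minus strand): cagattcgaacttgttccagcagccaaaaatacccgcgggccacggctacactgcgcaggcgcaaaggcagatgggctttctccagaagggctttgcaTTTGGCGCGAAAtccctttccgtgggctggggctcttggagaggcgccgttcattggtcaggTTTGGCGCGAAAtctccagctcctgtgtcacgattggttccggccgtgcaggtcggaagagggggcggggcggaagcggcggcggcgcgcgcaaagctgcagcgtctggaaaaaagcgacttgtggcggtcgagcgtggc

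In GINS1 the match began 5 bases after the start site and lay on the other strand. In CDC25A it began 44 bases before the start site, and in E2F1 a pair of matches began 33 and 20 bases before it. The MCM6 window held blocks of capitals that began 152 and 90 bases before the start site, each made of overlapping matches on the plus and minus strand. The windows of E2F2 and GINS2 held a match too and are not shown. A match was thus present in 6 of the 6 called genes and in 16 of the 39 others (41.0%), so in 22 of 45 in all (48.9%), against 3.33% of the 27305 promoters in the table. The letters CCAAT, a binding motif of the factor NF-Y, were present in 25 of 45 (55.6%), against 35.7% of all promoters, and the cell cycle homology region TTTGAA or TTCGAA in 3 of 45 (6.67%), against 16.6%. A match describes letters only and is not evidence of a bound factor.

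With a match in the promoter, 5 of 22 genes rose and 1 fell, with a median log2 fold change of 0.09, and without one 0 of 23 rose or fell, with a median of 0.07. The centres of these sets were thus close, and CDC25A, the gene that fell, carried TTTGGCGC as did GINS1, E2F1 and MCM6, which rose. Other tested genes of the series were compared only where they had a promoter window, and those without one were left out. Of these, 17 of 551 with a match rose (3.09%) and 13 fell (2.36%), with a median of 0.01. By comparison, 2.07% of the 10652 without a match rose and 3.74% fell, with a median of -0.00. These shares were compared after the calls were known and carry no test.

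**Figure D2:**
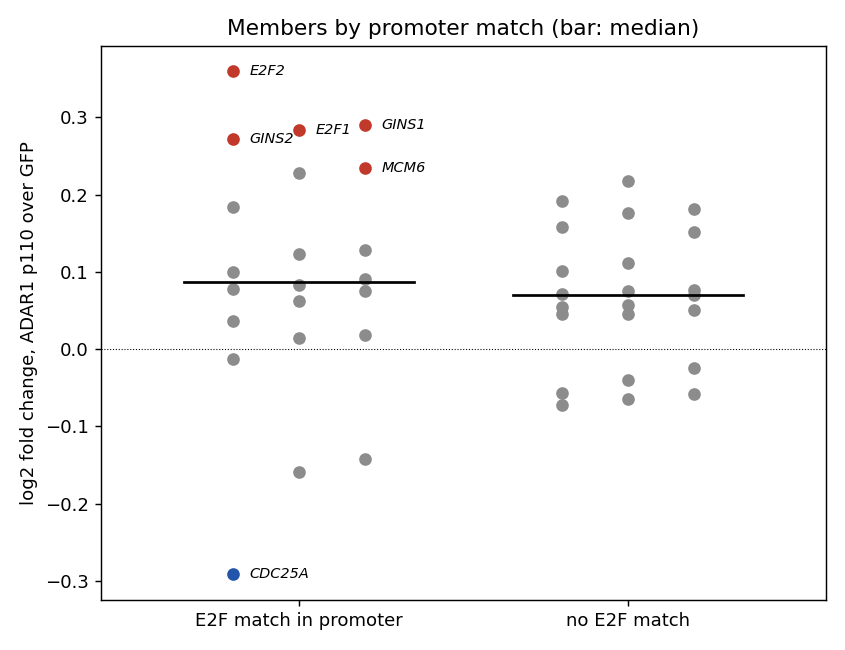
Estimated log2 ratios, ADAR1 p110 over GFP, on the vertical axis for the 45 genes with a promoter window, by presence (22 genes) or absence (23 genes) of an E2F match, with genes that rose in red, the gene that fell in blue and medians as bars. All 6 called genes are in the left column, and the medians of the columns are 0.09 and 0.07.

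Among the E2F genes, E2F1 and E2F2 rose and E2F8 did not pass. E2F1 and E2F2 encode activators of G1/S transcription and E2F8 an atypical repressor of it, and for all 3 genes every ADAR1 p110 library lay above every GFP library. E2F1 (ENSG00000101412.12_2, hg19 chromosome 20, 32263489 to 32274210, minus strand) stood at 44.4, 49.6 and 45.6 CPM with ADAR1 p110, against 38.8, 36.1 and 39.7 CPM with GFP (log2 fold change 0.28 with SE 0.063, edgeR adjusted p = 0.0271). Its call was kept only when ADAR1 p110 replicate 1 was the library left out, and was lost in each of the 5 other such fits (log2 fold change 0.24 to 0.32). E2F2 (ENSG00000007968.6_2, hg19 chromosome 1, 23832922 to 23857712, minus strand) was the least abundant of the 51 genes, with 7.12, 7.54 and 7.67 CPM with ADAR1 p110, against 5.98, 6.02 and 5.42 CPM with GFP (log2 fold change 0.36 with SE 0.084, edgeR adjusted p = 0.0344). It had the highest estimate of the 51, 1.28-fold with a 95% interval of 1.13-fold to 1.46-fold, and like E2F1 was called without ADAR1 p110 replicate 1 but in none of the 5 other fits that left out a library. E2F8 stood at 24.8, 23.1 and 22.9 CPM with ADAR1 p110, against 21.6, 21.0 and 22.0 CPM with GFP and did not pass (log2 fold change 0.13 with SE 0.061, edgeR adjusted p = 0.284).

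CDC25A fell, and neither cyclin E gene passed. CDC25A, the phosphatase that removes inhibitory phosphates from cyclin-dependent kinases (ENSG00000164045.11_3, hg19 chromosome 3, 48198636 to 48229892, minus strand), fell to 85.4, 96.8 and 94.9 CPM with ADAR1 p110, against 110.4, 112 and 117 CPM with GFP (log2 fold change -0.29 with SE 0.059, edgeR adjusted p = 0.0172). It was the only one of the 51 genes to fall past the threshold, and its 3 ADAR1 p110 libraries were all below its 3 GFP libraries. The call was lost without ADAR1 p110 replicate 3, GFP replicate 1 or GFP replicate 3. It had log2 fold changes of -0.33 to -0.24 over the 6 fits. CCNE1, one of the genes for cyclin E, had 14.5, 15.8 and 15.0 CPM with ADAR1 p110, against 14.1, 13.0 and 13.7 CPM with GFP, without overlap of the groups but short of the threshold (log2 fold change 0.15 with SE 0.069, edgeR adjusted p = 0.266). CCNE2, which encodes the other cyclin E, had log2 fold change 0.03 (95% interval -0.08 to 0.14).

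**Figure D3:**
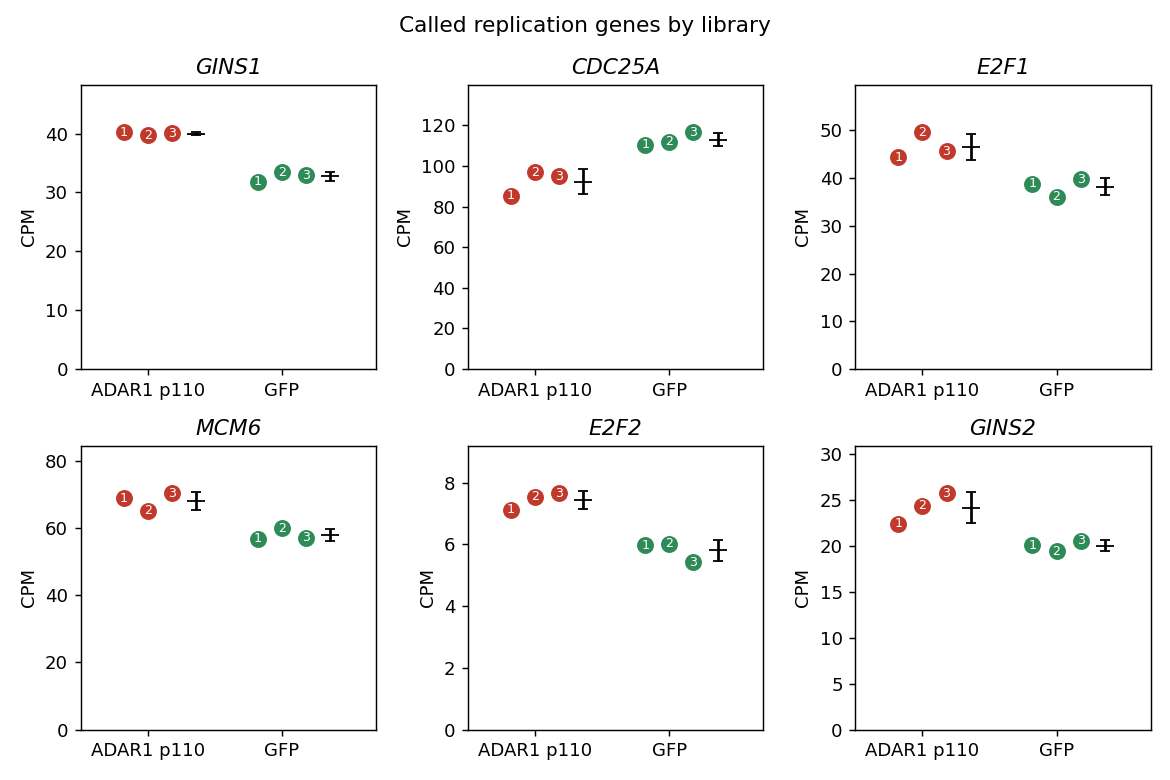
CPM of the 6 called genes in each library (vertical axis from 0), ADAR1 p110 red and GFP green, replicate numbers inside the points, and the mean with its SD beside them (n = 3 per group). In no panel do the groups overlap, and the ADAR1 p110 points are higher for 5 genes and lower for CDC25A.

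Genes of origin licensing gave no call and had estimates near 0. None of ORC1, ORC6, CDC6, CDT1 and GMNN passed, and their log2 fold changes ran from -0.07 to 0.08. Their 95% intervals reached down to -0.23 for ORC1 and up to 0.21 for ORC6, so equality is not shown. ORC1, the ATPase subunit that is made and degraded through the cycle, had 24.5, 26.6 and 28.5 CPM with ADAR1 p110, against 29.3, 25.9 and 28.5 CPM with GFP (log2 fold change -0.07 with SE 0.073, edgeR adjusted p = 0.667). ORC6 had 27.5, 28.0 and 28.9 CPM with ADAR1 p110, against 28.0, 25.5 and 26.5 CPM with GFP (log2 fold change 0.08 with SE 0.060, edgeR adjusted p = 0.555). Libraries of the groups overlapped for both ORC genes. CDC6, which loads the helicase together with ORC, had 94.6, 108 and 107 CPM with ADAR1 p110, against 100.2, 94.0 and 102 CPM with GFP (log2 fold change 0.06 with SE 0.063, edgeR adjusted p = 0.667). CDT1, its partner in loading, had 22.8, 21.8 and 21.2 CPM with ADAR1 p110, against 22.2, 20.5 and 21.5 CPM with GFP (log2 fold change 0.04 with SE 0.062, edgeR adjusted p = 0.821). The GMNN libraries did not overlap, but its estimate was 0.05 (95% interval -0.06 to 0.16, edgeR adjusted p = 0.664).

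The MCM2 to MCM7 genes encode the 6 subunits of the ring that unwinds DNA, and all 6 estimates were above 0, with a median log2 fold change of 0.18. MCM6 (ENSG00000076003.4_2, hg19 chromosome 2, 136597196 to 136633996, minus strand) was the 1 subunit that passed, with 68.9, 65.2 and 70.4 CPM with ADAR1 p110, against 56.8, 59.9 and 57.1 CPM with GFP (log2 fold change 0.23 with SE 0.054, edgeR adjusted p = 0.0319). Its groups did not overlap, and the call was lost when replicate 2 or 3 of ADAR1 p110, or replicate 1 or 3 of GFP, was taken out. MCM5 had 86.2, 96.8 and 95.7 CPM with ADAR1 p110, against 83.7, 72.0 and 81.6 CPM with GFP, with almost the same fold change as MCM6 (log2 fold change 0.23 with SE 0.070, edgeR adjusted p = 0.0917). MCM2 had 96.1, 112 and 111 CPM with ADAR1 p110, against 91.8, 85.9 and 93.9 CPM with GFP (log2 fold change 0.23 with SE 0.067, edgeR adjusted p = 0.0831). Groups did not overlap for these genes either, and both passed without ADAR1 p110 replicate 1, with the Wald test of DESeq2 and with no filter on low counts, MCM2 also with scaling by library size alone. MCM4 had the lowest estimate of the ring, with 171, 172 and 176 CPM with ADAR1 p110, against 162, 161 and 172 CPM with GFP (log2 fold change 0.07 with SE 0.048, edgeR adjusted p = 0.521). MCM7 and MCM3 lay between, at 0.13 (95% interval -0.00 to 0.26) and 0.10 (95% interval -0.03 to 0.24). For MCM2, MCM3, MCM4, MCM5 and MCM7, ADAR1 p110 replicate 1 was the lowest of the ADAR1 p110 libraries and GFP replicate 2 the lowest of the GFP libraries.

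CDC7 and DBF4 form the kinase that phosphorylates the loaded ring, and neither passed. DBF4 had 90.8, 95.5 and 99.5 CPM with ADAR1 p110, against 89.2, 89.9 and 91.9 CPM with GFP (log2 fold change 0.08 with SE 0.052, edgeR adjusted p = 0.497). CDC7 had 36.3, 37.6 and 38.3 CPM with ADAR1 p110, against 34.9, 36.5 and 37.4 CPM with GFP (log2 fold change 0.05 with SE 0.055, edgeR adjusted p = 0.736). Both had overlapping groups. CDC45, which joins the ring to make the active helicase, had 39.2, 45.1 and 43.3 CPM with ADAR1 p110, against 41.2, 37.8 and 42.4 CPM with GFP (log2 fold change 0.07 with SE 0.069, edgeR adjusted p = 0.657). MCM10, an initiation factor that is no part of the ring, had 70.6, 75.9 and 73.3 CPM with ADAR1 p110, against 75.2, 76.1 and 77.6 CPM with GFP (log2 fold change -0.06 with SE 0.051, edgeR adjusted p = 0.617). These firing factors lay on either side of 0.

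GINS, the 4-subunit complex that binds the ring beside CDC45, had 2 genes that rose and 2 that did not pass. GINS1 (ENSG00000101003.9_2, hg19 chromosome 20, 25388363 to 25433264, plus strand) had 40.2, 39.7 and 40.0 CPM with ADAR1 p110, against 31.8, 33.4 and 32.9 CPM with GFP, or 1.22-fold (log2 fold change 0.29 with SE 0.052, edgeR adjusted p = 0.00934). It had the smallest p of the 51 genes, its groups did not overlap, and its call was lost without GFP replicate 1 or GFP replicate 3. GINS2 (ENSG00000131153.8_3, hg19 chromosome 16, 85709804 to 85723679, minus strand) had 22.4, 24.4 and 25.7 CPM with ADAR1 p110, against 20.1, 19.4 and 20.5 CPM with GFP (log2 fold change 0.27 with SE 0.067, edgeR adjusted p = 0.0447). That call was the closest to the threshold of the 6 and was kept only in the fit without ADAR1 p110 replicate 1, among those that left out a library. GINS2 overlaps GSE1 by 7 bases on the other strand, and GSE1 held 43.9% as many counts. GINS3 pointed the other way, with 12.8, 14.4 and 14.3 CPM with ADAR1 p110, against 16.4, 13.4 and 15.9 CPM with GFP and overlapping groups (log2 fold change -0.14 with SE 0.088, edgeR adjusted p = 0.439). GINS4 was at 0.04 (95% interval -0.10 to 0.17). The intervals of GINS1 and GINS3 did not overlap (95% interval 0.17 to 0.41 for GINS1, 95% interval -0.34 to 0.05 for GINS3), and the difference between the genes was not tested.

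The 8 polymerase genes gave no call, with a median log2 fold change of 0.07. POLD1, the catalytic subunit of polymerase delta, was highest, with 78.8, 86.2 and 84.6 CPM with ADAR1 p110, against 73.4, 68.3 and 76.8 CPM with GFP and no overlap between groups (log2 fold change 0.19 with SE 0.061, edgeR adjusted p = 0.109). It passed without ADAR1 p110 replicate 1. POLA2, the B subunit of polymerase alpha, was lowest and was the other gene of the 51 beside CDC25A whose ADAR1 p110 libraries were all lower, with 22.1, 24.2 and 25.2 CPM with ADAR1 p110, against 25.4, 27.2 and 27.3 CPM with GFP (log2 fold change -0.16 with SE 0.067, edgeR adjusted p = 0.234). The catalytic subunit of the same enzyme, POLA1, was at 0.08 (95% interval -0.03 to 0.20), and the primase genes PRIM1 and PRIM2 at 0.18 (95% interval 0.01 to 0.34) and 0.07 (95% interval -0.08 to 0.22). POLE and POLE2, of polymerase epsilon, and POLD3, of polymerase delta, had 0.08, 0.01 and 0.03. PRIM1 overlaps NACA by 33 bases on the same strand, and NACA held 2569% as many counts. The part of its reads in the PRIM1 value was not tested.

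Clamp loading gave no call either. Of the 4 RFC genes, RFC4 was highest, with 50.3, 55.1 and 55.7 CPM with ADAR1 p110, against 49.0, 46.7 and 48.6 CPM with GFP and no overlap of groups (log2 fold change 0.16 with SE 0.058, edgeR adjusted p = 0.166). It passed without ADAR1 p110 replicate 1. RFC2 was lowest, with 66.8, 75.6 and 75.7 CPM with ADAR1 p110, against 79.3, 69.6 and 79.2 CPM with GFP and overlapping groups (log2 fold change -0.07 with SE 0.070, edgeR adjusted p = 0.693). RFC5 and RFC3 had log2 fold changes of 0.11 and -0.01, and the median of the 4 was 0.05. RFC4 and RFC5 overlap EIF4A2 and WSB2 on the other strand, by 21 and 437 bases. These held 834% and 314% as many counts, and the sources used here give no strand setting for the counting. PCNA, the clamp itself, had 156, 168 and 166 CPM with ADAR1 p110, against 154, 145 and 152 CPM with GFP, without overlap (log2 fold change 0.12 with SE 0.052, edgeR adjusted p = 0.234). FEN1, the nuclease that trims Okazaki fragments, had 140.3, 157 and 158 CPM with ADAR1 p110, against 149.5, 138 and 151 CPM with GFP (log2 fold change 0.06 with SE 0.062, edgeR adjusted p = 0.706). FEN1 overlaps FADS2 by 4265 bases on the same strand, and FADS2 held 134% as many counts.

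At the fork, CLSPN, the adaptor of the ATR checkpoint, and TIPIN, a fork protection factor, lay near 0. CLSPN had 71.6, 75.2 and 77.1 CPM with ADAR1 p110, against 70.2, 75.1 and 75.7 CPM with GFP (log2 fold change 0.02 with SE 0.055, edgeR adjusted p = 0.908). TIPIN had 21.8, 25.8 and 24.4 CPM with ADAR1 p110, against 24.1, 22.6 and 26.5 CPM with GFP (log2 fold change -0.02 with SE 0.080, edgeR adjusted p = 0.920). In chromatin assembly and maintenance of DNA methylation, UHRF1, which recognises hemimethylated DNA, was highest, with 112, 119 and 114 CPM with ADAR1 p110, against 100.2, 100.1 and 103 CPM with GFP and no overlap between groups (log2 fold change 0.18 with SE 0.049, edgeR adjusted p = 0.0599). It passed without ADAR1 p110 replicate 1, with the Wald test of DESeq2 and with library size alone. CHAF1B, a subunit of the histone chaperone CAF-1, had 27.9, 28.9 and 31.4 CPM with ADAR1 p110, against 28.9, 26.6 and 29.9 CPM with GFP (log2 fold change 0.05 with SE 0.068, edgeR adjusted p = 0.798). Its partner CHAF1A was at 0.06 (95% interval -0.09 to 0.20). HELLS, a chromatin remodeller, was at 0.09, with ADAR1 p110 replicate 1 the highest library at 78.3 CPM and the other 5 between 62.8 and 68.3 CPM. CHAF1B overlaps MORC3 by 771 bases and HELLS overlaps TBC1D12 by 34497 bases, both on the same strand. MORC3 held 289% as many counts as CHAF1B, and TBC1D12 held 79.6% as many as HELLS.

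Of the 6 genes for nucleotide supply, uracil repair and histone mRNA, 0 passed. TK1, thymidine kinase of the salvage pathway, had 134, 142 and 134 CPM with ADAR1 p110, against 123, 111 and 126 CPM with GFP without overlap (log2 fold change 0.18 with SE 0.059, edgeR adjusted p = 0.119). The ribonucleotide reductase genes lay slightly below 0. RRM2, the regulated subunit, had 155, 138 and 148 CPM with ADAR1 p110, against 151, 158 and 150.3 CPM with GFP (log2 fold change -0.06 with SE 0.055, edgeR adjusted p = 0.646). RRM1, the large subunit, was at -0.04 (95% interval -0.17 to 0.09). TYMS, thymidylate synthase, was at 0.08 (95% interval -0.07 to 0.23), and overlaps ENOSF1 on the other strand, which held 42.4% as many counts. UNG, which removes uracil from DNA, had the highest estimate of this set, with 70.6, 80.3 and 84.2 CPM with ADAR1 p110, against 65.3, 65.8 and 71.1 CPM with GFP (log2 fold change 0.22 with SE 0.070, edgeR adjusted p = 0.117). Its groups overlapped only through ADAR1 p110 replicate 1 and GFP replicate 3, and it passed without ADAR1 p110 replicate 1 or with no filter on low counts. SLBP, which binds the stem-loop of replication-dependent histone mRNA, was at 0.10 (95% interval -0.02 to 0.22). Beside it stood a share of histone cluster genes of 0.686%, 0.714% and 0.733% of counts with ADAR1 p110 and 0.571%, 0.485% and 0.625% with GFP.

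The libraries that stood apart were low within their groups for many of the genes. ADAR1 p110 replicate 1 lay below both other ADAR1 p110 libraries in 39 of the 51 genes, and GFP replicate 2 below both other GFP libraries in 34. Averaged over the 51 genes, log2 CPM departed from the mean of the 6 libraries by -0.02, 0.06 and 0.07 with ADAR1 p110 and by -0.03, -0.08 and -0.01 with GFP, so that ADAR1 p110 replicate 1 fell within the range of the GFP libraries. Set against each other, ADAR1 p110 replicate 1 was above GFP replicate 2 in 36 of the 51 genes, with a median log2 ratio of 0.09. Among the other 4 libraries the ADAR1 p110 mean was above the GFP mean in 41 genes, with a median of 0.07. The direction was the same in both subsets for 42 genes. These counts were not made over all tested genes. GINS1 had log2 ratios of 0.27 and 0.30 in the 2 subsets, E2F1 0.30 and 0.28, MCM6 0.20 and 0.25, and CDC25A -0.39 and -0.24. Such called genes were picked on all 6 libraries and their groups did not overlap. Their equal sign in the 2 subsets was therefore fixed in advance and is no replication. The sign was fixed in the same way for every gene whose groups did not overlap, 15 higher and 2 lower. MKI67, a marker of proliferating cells, stood at 362, 225 and 209 CPM with ADAR1 p110, against 211, 312 and 234 CPM with GFP, with its highest values in the 2 libraries that stood apart. The part of these libraries in the results was not tested.

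**Figure D4:**
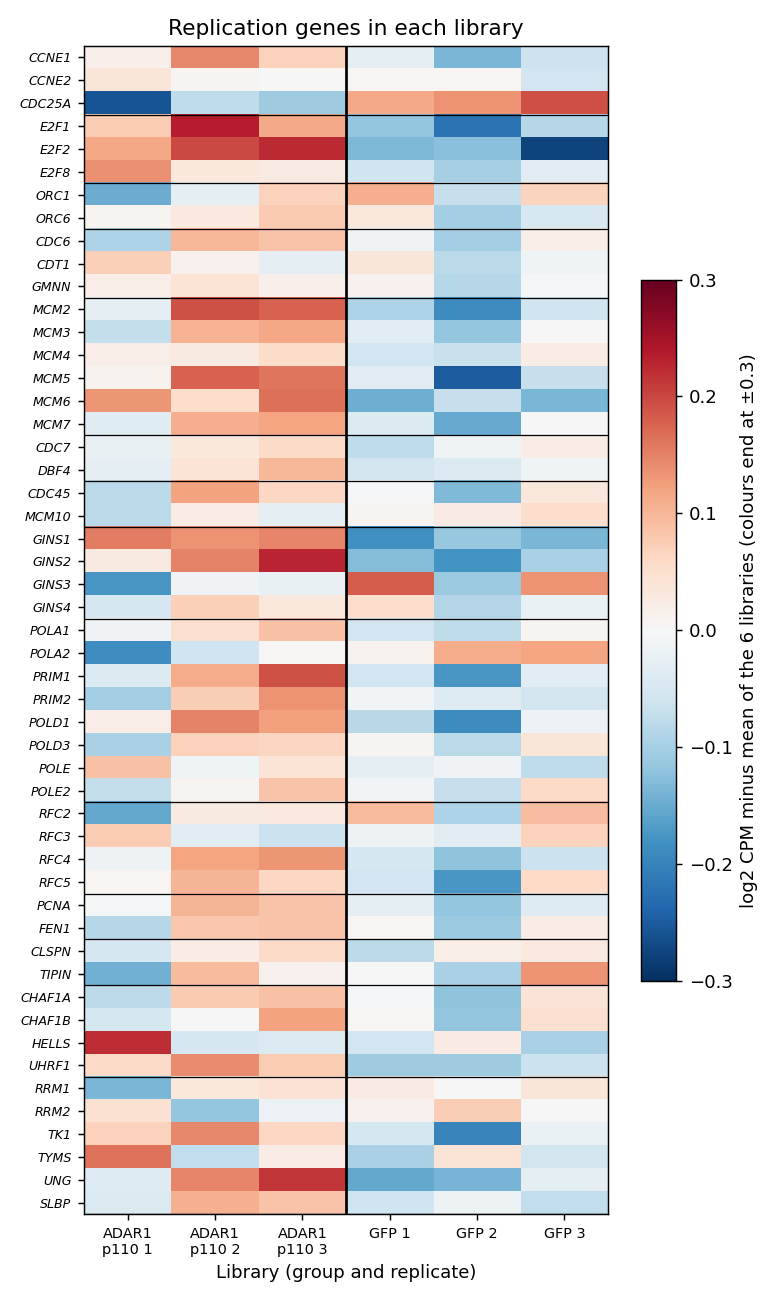
Log2 CPM of each of the 51 genes (rows, grouped by role) minus its mean over the 6 libraries, with red above and blue below the mean, ADAR1 p110 libraries left of the thick line and GFP libraries right of it. The column of GFP replicate 2 holds the lowest value of the 6 in 26 genes, and those of ADAR1 p110 replicates 2 and 3 the highest in 15 and 20 genes.

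Levels within complexes were compared per length, as CPM per kilobase of the gene length in the table. In the MCM ring the order was MCM3, MCM7, MCM4, MCM2, MCM6 and MCM5 in 6 of 6 libraries, with no overlap between neighbours over the libraries. MCM3 stood at 100.5 ± 7.17 CPM per kb with ADAR1 p110 and 93.7 ± 3.84 CPM per kb with GFP and MCM5 at 12.7 ± 0.796 CPM per kb with ADAR1 p110 and 10.8 ± 0.851 CPM per kb with GFP (SD, n = 3 each), a ratio of 7.85 to 9.12 within a library. The length is the one deposited beside the counts, and levels per length depend on it.

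For GINS the order was GINS1, GINS2, GINS4 and GINS3. GINS1 stood at 9.83 ± 0.0671 CPM per kb with ADAR1 p110 and 8.04 ± 0.194 CPM per kb with GFP and GINS3 at 2.71 ± 0.170 CPM per kb with ADAR1 p110 and 2.99 ± 0.316 CPM per kb with GFP. GINS2 was above GINS4 in 5 of 6 libraries. Their ranges did not overlap with ADAR1 p110, at 6.85 to 7.88 CPM per kb for GINS2 and 5.76 to 6.26 CPM per kb for GINS4. With GFP they did, at 5.94 to 6.29 CPM per kb for GINS2 and 5.61 to 6.19 CPM per kb for GINS4. ORC1 exceeded ORC6 in 6 of 6 libraries, by 1.21 to 1.47 times. RFC2 was above the other RFC genes, at 32.9 ± 2.32 CPM per kb with ADAR1 p110 and 34.4 ± 2.52 CPM per kb with GFP, and RFC4, RFC5 and RFC3 followed with overlapping ranges. Among the polymerases POLD1 was highest, at 17.1 ± 0.802 CPM per kb with ADAR1 p110 and 15.0 ± 0.884 CPM per kb with GFP, and POLA2 lowest, at 4.16 ± 0.276 CPM per kb with ADAR1 p110 and 4.65 ± 0.190 CPM per kb with GFP. Between them POLA1, POLE2 and POLD3 overlapped as neighbours, as did PRIM1, POLE and PRIM2.

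**Figure D5:**
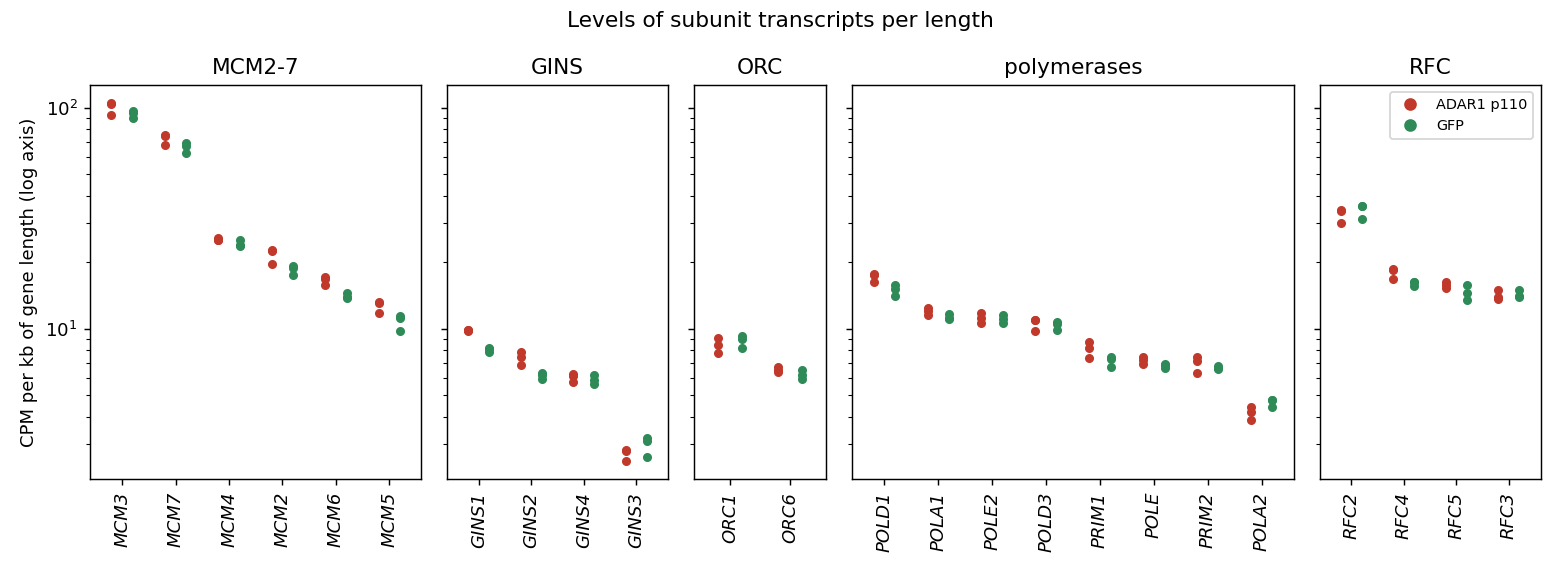
CPM per kb of gene length on a log axis for the subunit genes of 5 complexes, with 1 point per library, ADAR1 p110 in red on the left and GFP in green on the right of each gene. MCM3 lies 7.85 to 9.12 times above MCM5 within a library, while both groups of each gene lie close together.

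Other genes of the pathway gave 2 calls. Of 67 further genes for subunits and partners of these complexes, 2 rose and 0 fell. That is 2.99% higher against 1.95% of all tested genes, and their median log2 fold change was 0.06. Estimates lay above 0 for 45 of them (67.2%), against 51.2% of all tested genes. Libraries of the groups did not overlap for 21 that were higher and 4 that were lower, against 11.8% and 12.2% of all tested genes. At an unadjusted edgeR p under 0.05, 17 were higher and 2 lower, against 9.21% and 9.43%. Such counts were thus not particular to the 51 genes. ASF1B, a histone chaperone that hands histones to CAF-1, had 39.9, 45.6 and 43.1 CPM with ADAR1 p110, against 33.9, 30.6 and 35.8 CPM with GFP (log2 fold change 0.36 with SE 0.073, edgeR adjusted p = 0.0181). CHTF18, a subunit of an alternative clamp loader, had 38.4, 42.3 and 43.9 CPM with ADAR1 p110, against 33.7, 30.3 and 35.5 CPM with GFP (log2 fold change 0.32 with SE 0.074, edgeR adjusted p = 0.0302). It overlaps RPUSD1 by 352 bases on the other strand, which held 85.3% as many counts. Neither gene's groups overlapped. Without ADAR1 p110 replicate 1 the 67 genes gave 6 higher and 2 lower, without ADAR1 p110 replicate 2 or 3 or GFP replicate 1 they gave 0 higher. Without GFP replicate 2 they gave 1 higher, without GFP replicate 3 they gave 2 higher and 0 lower, and without both libraries that stood apart 10 higher and 5 lower. Over all genes, 795 rose and 1017 fell without ADAR1 p110 replicate 1, and 1181 rose and 1424 fell without both.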

How the data were processed

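Total RNA of 6 libraries was sequenced after column extraction and a stranded total RNA kit, per the labels' protocols. The submitters' processing notes name hg19, STAR 2.5.2a and featureCounts 1.5.1, and the deposited values are raw counts per gene, with a gene length in bases per the file headers. The sources used here do not give the strand setting or the treatment of multiply aligned or duplicate reads, so reads of overlapping genes may be split unevenly: 13 of the 51 genes are overlapped by a gene with at least 10% as many counts.

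Genes were filtered with filterByExpr (minimum count 10), scaled by TMM and tested on the whole table with edgeR 4.0.16 (glmQLFit, glmQLFTest, group as the only term, R 4.3.3), with Benjamini-Hochberg adjustment over all tested genes and a threshold of 0.05. The SE is the log2 fold change over the square root of F, and 95% intervals use the t quantile. The biological coefficient of variation was 8.00%. No untested gene is among the 51. Alternatives were DESeq2 size factors, library size alone, no low-count filter, DESeq2 1.42.0, limma-voom (limma 3.58.1), the replicate number as a block, and leaving out libraries. Pairs within a group differed by 8.64 to 39.7 in chi-square per degree of freedom, so none was the same library sequenced again. Libraries made from 1 culture cannot be told from those of separate cultures in this way. Promoter windows are those of RefSeq.

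All 51 genes are accounted for. Per-library values are given for ADAR, called genes and the highest and lowest of each role group, with some others picked after their values were seen (MCM2, MCM5, TK1 and the marker MKI67, and in part HELLS). The members, lists and rules were chosen with earlier results of these data known.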

Additional observations from a re-analysis of the deposited data

How the results depend on the processing

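Directions of the 6 called genes and the median of the 51 genes (log2 fold change 0.06 to 0.11) held under all 13 alternatives, while the number of calls did not. The 5 genes that rose became 8 with no low-count filter and 8 with the DESeq2 Wald test, and 0 to 11 when 1 library was left out, or 16 without both ADAR1 p110 replicate 1 and GFP replicate 2. The 1 that fell became 0 or 1 when 1 library was left out. Over all genes, 927 calls became 1553 with no low-count filter (742 rose) and 1302 with the DESeq2 Wald test (591 rose). They became 396 to 1812 without 1 library and 2605 without both. Of the other pathway genes, 5 rose with no low-count filter, 0 to 6 rose and 0 to 2 fell without 1 library, and 10 rose and 5 fell without both. With the replicate number as a block, 0 of the 51 genes rose, 0 fell, 0 other pathway genes rose and 508 genes were called in all. Same-numbered libraries did not deviate together (correlations -0.11, -0.03 and 0.04). With so few libraries a group, these correlations cannot decide whether replicates were paired, and the sources used here do not say.

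Genes near 0 changed sign. RFC3 was at 0.0119 with library size alone. Over the 7 fits without 1 library or without both, the log2 fold change was -0.0726 to 0.0222 for RFC3, -0.0782 to 0.0426 for TIPIN, -0.00337 to 0.140 for HELLS, -0.0688 to 0.0160 for RRM1, -0.00297 to 0.0773 for POLD3, -0.0222 to 0.0527 for POLE2, -0.0120 to 0.0645 for CLSPN, -0.00183 to 0.0842 for CHAF1B and -0.0161 to 0.0688 for CDT1. Without both libraries that stood apart, CDT1 was at -0.0161 and RRM1 at 0.00869. The cause was not tested. With 3 libraries a group, the median 95% interval of the 51 genes was 0.14 wide to either side on the log2 scale. That width applies to 1 gene before adjustment over all tested genes. Larger shifts also failed to pass, up to that of MCM5 at 0.232, so a gene that did not pass may still have shifted.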
